A study of Mus musculus with 14 samples.

Results

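Interferon-stimulated genes were followed in the overloaded plantaris of old mice. The list held 42 genes, chosen by symbol, and a gene was measured where an array row carried its symbol alone. This left 36 of the 42, among 19938 genes with such a row in the series. Of the other 6, Isg15, Ifi47, Igtp, Irgm2 and Gbp2 lay only on rows with several symbols, and Ifi44 was not analysed here. By their better known inducer, 28 measured members were classed as type I-like and 8 as gamma-induced (Irf1, Irf8, Tap1, Irgm1, Iigp1, Gbp3, Gbp5 and Gbp7), although many respond to both kinds of interferon.

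The animals were male C57BL/6J mice of 25 months. The gastrocnemius and soleus were removed (synergist ablation), so that the plantaris, a calf muscle, carried their load. The labels give this protocol for every group, and day 0 is read here as muscle before overload. The 7 groups are days 0, 1, 3, 5, 7, 10 and 14 after surgery, each measured on 2 arrays of the type Affymetrix Mouse Gene 1.0 ST. Left plantaris muscles of 6 animals were pooled for the one array and right muscles for the other, so each day had 2 values and no single animal was resolved. No sham-operated group is labelled, so the effects of surgery and of load cannot be told apart, and young muscle was not analysed here. Across genes, which are not independent replicates, left and right of the same day had r of 0.994 to 0.997. Acta1, the actin of skeletal fibres, read between 14.20 and 14.44 on the 14 arrays, near the highest values of any array. Of 16 fibre markers 15 were called lower on days 3 and 5, against 26.6% and 33.7% of all genes.

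Interferons are secreted proteins that cells release when sensors meet foreign or misplaced nucleic acid, or, for interferon gamma, when T and NK cells are activated. Type I interferons bind the receptor Ifnar1 and Ifnar2 and send a complex that holds STAT2 and IRF9 to a DNA element called ISRE, while interferon gamma binds Ifngr1 and Ifngr2 and acts through an element called GAS. The genes switched on encode sensors, transcription factors, antiviral effectors, and GTPases that attack the vacuoles of intracellular microbes. Macrophages, which enter muscle after injury, are strong responders.

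Most members rose within 1 day of overload, and most were still higher after 14 days. Of the 36 members, 30 were called higher on day 1, against 22.3% of all 19938 genes. On day 3 it was 32 members, against 24.1% of all genes, and on day 5 it was 34, against 26.4%. On day 7 it was 31, against 26.6%, on day 10 again 31, against 25.9%, and on day 14 it was 27, against 22.9%. A gene was called where limma, fitted to all 14 arrays, gave an adjusted p under 0.05 (Benjamini-Hochberg over all genes). Only 1 member was called lower on day 1 (Iigp1) and 1 on day 14 (Rsad2), against 22.6% and 30.5% of all genes. On days 3, 5, 7 and 10 limma called 0 members lower, against 26.6%, 33.7%, 36.3% and 34.3% of all genes. At an unadjusted p under 0.05 the count on those 4 days was also 0.

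The median difference of the 36 members from day 0, on the log2 scale, was 1.01 on day 1, 1.06 on day 3, 1.04 on day 5, 0.71 on day 7, 0.65 on day 10 and 0.50 on day 14. Over all genes the medians were 0.04, -0.07, -0.12, -0.14, -0.13 and -0.11. Members called higher by at least 2-fold numbered 18, 21 and 20 on days 1, 3 and 5. On days 7, 10 and 14 they numbered 7, 7 and 4. Among all 19938 genes these counts were 980, 1513 and 1753 on days 1, 3 and 5. On days 7, 10 and 14 they were 1709, 1614 and 1209. A moderated F test over all days called 35 of the 36 members, against 79.5% of all genes, and Gbp5 was the exception (adjusted p = 0.382). Below, a difference is a log2 difference from day 0 with its standard error from the fit (n = 2 arrays a day), and signals are log2 signals with the left array first. Both arrays of a day may come from the same animals, so p-values measure the spread between pools and arrays. RNA came from whole muscle, so more responding cells and more RNA per cell cannot be told apart in any of these values.

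**Figure D1:**
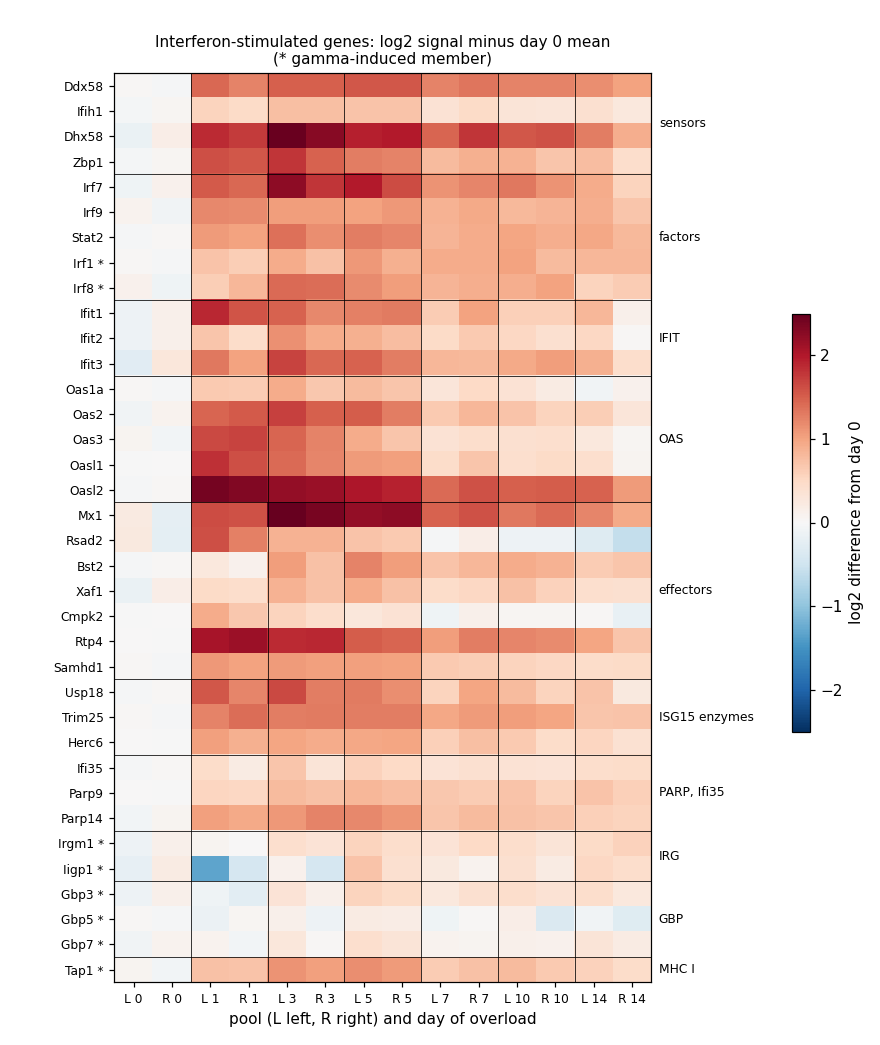
Log2 signal of each of the 36 members (rows, grouped by role) on each of the 14 arrays (columns, by pool and day) minus the gene's day 0 mean. Colour runs from blue (lower) through white to red (higher); most rows are darkest on days 1 to 5, and Iigp1 is blue on both day 1 arrays.

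Stretches of 6 promoters are shown because they hold ISRE or GAS letters, which factors of the interferon response are known to bind. They are RefSeq bases of build GRCm38.p6, taken as the 150 bases before the transcript start and written 5′ to 3′ on the gene's strand; capitals mark matches to the ISRE core (GAAA, any 2 bases and GAAA again, or TTTC, any 2 bases and TTTC on the other strand) and to GAS (TTCNNNGAA, its own reverse complement). Ifit1 (chr19:34640739-34640888, plus strand), Rsad2 (chr12:26456453-26456602, minus strand) and Oas3 (chr5:120777660-120777809, minus strand) are type I-like and carry ISRE matches.
Ifit1: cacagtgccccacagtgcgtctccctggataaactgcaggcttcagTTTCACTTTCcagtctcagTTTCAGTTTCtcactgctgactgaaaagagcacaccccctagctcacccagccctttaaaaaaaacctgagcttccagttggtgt
Rsad2: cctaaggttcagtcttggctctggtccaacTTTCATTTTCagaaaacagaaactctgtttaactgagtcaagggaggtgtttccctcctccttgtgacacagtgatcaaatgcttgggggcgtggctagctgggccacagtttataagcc
Oas3: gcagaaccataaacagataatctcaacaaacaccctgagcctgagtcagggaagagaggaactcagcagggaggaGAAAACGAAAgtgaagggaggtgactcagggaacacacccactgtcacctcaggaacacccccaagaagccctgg
Irf1 (chr11:53769864-53770013, plus strand), Gbp7 (chr3:142530186-142530335, plus strand) and Irgm1 (chr11:48871421-48871570, minus strand) are gamma-induced.
Irf1: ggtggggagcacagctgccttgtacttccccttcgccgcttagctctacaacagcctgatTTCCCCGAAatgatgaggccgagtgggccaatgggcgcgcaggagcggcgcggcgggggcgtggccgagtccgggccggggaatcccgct
Gbp7: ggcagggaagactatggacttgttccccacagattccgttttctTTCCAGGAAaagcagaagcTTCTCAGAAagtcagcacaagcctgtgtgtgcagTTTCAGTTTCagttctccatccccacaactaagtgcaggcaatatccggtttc
Irgm1: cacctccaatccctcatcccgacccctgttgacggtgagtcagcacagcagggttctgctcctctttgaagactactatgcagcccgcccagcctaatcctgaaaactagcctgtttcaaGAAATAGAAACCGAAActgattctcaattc
Irf1 has 1 GAS match, Gbp7 has 2 GAS matches and 1 ISRE match, and the capitals of Irgm1 cover 2 overlapping ISRE matches.

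Promoters of 27 of the 36 measured members were in the RefSeq table, as 32 stretches from 250 bases before to 50 after a start. ISRE was found in 13 of the 32 (40.6%) and GAS in 9 (28.1%), both motifs in 4. Among all 32851 promoters of the table, 3.44% held ISRE and 8.3% held GAS. In the type I-like class 9 of 22 promoters held ISRE (40.9%) and 5 held GAS (22.7%), and in the gamma-induced class 4 of 10 held each (40.0%). The letters thus occurred in both classes, with GAS in a larger share of gamma-induced promoters, over few promoters. Members with more than 1 listed start (Gbp3, Ifit2, Irf1, Irf8 and Irf9) count more than once, and a match is a description of letters, not of binding.

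Sensors of nucleic acid rose on every day. Dhx58 (LGP2), a regulator of the RNA sensors RIG-I and MDA5, had the widest range of the 4. Dhx58 read 7.03 and 7.36 on day 0, 9.06 and 8.95 on day 1, 9.66 and 9.47 on day 3, 9.15 and 9.19 on day 5, 8.64 and 8.99 on day 7, 8.74 and 8.79 on day 10 and 8.48 and 8.10 on day 14. Every array after day 0 lay above both day 0 arrays, and the difference was 2.37 ± 0.15 on day 3 (5.17-fold, adjusted p = 5.3e-08) and 1.10 ± 0.15 on day 14 (adjusted p = 5.7e-05). Zbp1 read 8.31 and 8.40 on day 0, 9.96 and 9.90 on day 1, 10.14 and 9.82 on day 3, 9.64 and 9.59 on day 5, 9.15 and 9.25 on day 7, 9.22 and 9.04 on day 10 and 9.13 and 8.78 on day 14. Zbp1, a sensor of left-handed nucleic acid that can trigger necroptosis, thus stood highest on days 1 and 3, by 1.58 ± 0.12 and 1.63 ± 0.12 (adjusted p = 5.9e-07 and 2.9e-07), and all its later arrays stayed above day 0. Ddx58 (RIG-I), which binds RNA with a free triphosphate end, differed by 1.34 ± 0.08 on day 1, 1.55 ± 0.08 on day 5 and 1.08 ± 0.08 on day 14. Ifih1 (MDA5), which binds long double-stranded RNA, moved less, by 0.52 ± 0.08, 0.71 ± 0.08 and 0.34 ± 0.08 on the same days, and was called on each of the 6 days.

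Transcription factors of both classes rose. Irf7, which drives interferon genes and amplifies the type I response, had the largest change of this group. Irf7 read 8.66 and 8.88 on day 0, 10.31 and 10.20 on day 1, 11.00 and 10.55 on day 3, 10.75 and 10.40 on day 5, 9.89 and 9.99 on day 7, 10.09 and 9.89 on day 10 and 9.70 and 9.32 on day 14. The 2 arrays of day 3 were the farthest from day 0, by 2.0 ± 0.17 (4.01-fold, adjusted p = 6.2e-07), and no later array overlapped day 0. Stat2 read 8.72 and 8.79 on day 0, 9.82 and 9.76 on day 1, 10.13 and 9.92 on day 3, 10.03 and 9.97 on day 5, 9.61 and 9.67 on day 7, 9.73 and 9.66 on day 10 and 9.72 and 9.57 on day 14. Stat2, the transactivating subunit of the ISRE complex, stood 1.27 ± 0.09 above day 0 on day 3 and still 0.89 ± 0.09 on day 14 (adjusted p = 1.2e-07 and 4.1e-06). Irf9, the DNA-binding subunit of the same complex, was 1.19 ± 0.09 higher on day 1 and 0.81 ± 0.09 on day 14.

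Irf1 and Irf8 are gamma-induced factors, Irf1 an activator of antigen presentation genes and Irf8 also a lineage factor of monocytes and dendritic cells. Irf1 read 8.54 and 8.50 on day 0, 9.23 and 9.14 on day 1, 9.45 and 9.25 on day 3, 9.61 and 9.41 on day 5, 9.45 and 9.45 on day 7, 9.52 and 9.31 on day 10 and 9.34 and 9.36 on day 14. Irf1 kept nearly the same level on every day after day 0, with differences from 0.66 ± 0.10 on day 1 to 0.99 ± 0.10 on day 5 and 0.83 ± 0.10 on day 14 (adjusted p at most 1.1e-04). Another probe set of Irf1 alone, with a lower signal, was not called on any day and stood at -0.34 ± 0.14 on day 5 (adjusted p = 0.0656), so the probe sets disagree and the rise rests on the brighter one. Irf8 read 8.68 and 8.46 on day 0, 9.19 and 9.39 on day 1, 9.99 and 9.96 on day 3, 9.75 and 9.61 on day 5, 9.43 and 9.49 on day 7, 9.47 and 9.57 on day 10 and 9.13 and 9.20 on day 14. Irf8 peaked at 1.41 ± 0.10 on day 3 (adjusted p = 1.1e-07), and all arrays after day 0 lay above both day 0 arrays.

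The IFIT proteins, which bind viral RNA ends and block translation, rose early. Ifit1 read 8.37 and 8.63 on day 0, 10.39 and 10.06 on day 1, 9.97 and 9.69 on day 3, 9.76 and 9.79 on day 5, 9.13 and 9.50 on day 7, 9.10 and 9.09 on day 10 and 9.34 and 8.63 on day 14. Ifit1 was highest on day 1, 1.73 ± 0.20 above day 0 (3.31-fold, adjusted p = 1.7e-05). On day 14 its right array read the same as the right array of day 0 to the second decimal, while its left array stood above both, and the difference of 0.48 ± 0.20 was not called (adjusted p = 0.0619); without the right array of day 14 it was called at 0.84. Ifit3 read 8.87 and 9.42 on day 0, 10.46 and 10.14 on day 1, 10.83 and 10.57 on day 3, 10.62 and 10.41 on day 5, 9.98 and 9.96 on day 7, 10.08 and 10.20 on day 10 and 10.03 and 9.58 on day 14. Ifit3, whose near-identical copy Ifit3b may share its probes, was 1.56 ± 0.19 higher on day 3 (adjusted p = 1.4e-05), and its day 0 arrays were farther apart than its day 5 arrays. Ifit2 differed by 0.58 ± 0.15, 1.04 ± 0.15 and 0.27 ± 0.15 on days 1, 3 and 14, and the last was not called (adjusted p = 0.148). The day 1 call of Ifit2 ended without the left array of day 0 or of day 1 (0.44 and 0.45).

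Among the oligoadenylate synthetases, which make the messenger that activates RNase L, and their like proteins, all 5 were called higher on days 1 to 5. Oasl2 read 9.18 and 9.24 on day 0, 11.60 and 11.53 on day 1, 11.41 and 11.36 on day 3, 11.24 and 11.14 on day 5, 10.62 and 10.80 on day 7, 10.71 and 10.72 on day 10 and 10.68 and 10.28 on day 14. Oasl2 was 2.36 ± 0.11 above day 0 on day 1 (5.13-fold, adjusted p = 1.1e-08), the largest difference of any member on that day, and 1.27 ± 0.11 on day 14 (adjusted p = 1.7e-06). Oasl1 read 8.26 and 8.26 on day 0, 10.07 and 9.86 on day 1, 9.67 and 9.47 on day 3, 9.33 and 9.27 on day 5, 8.71 and 8.94 on day 7, 8.68 and 8.74 on day 10 and 8.67 and 8.33 on day 14. Oasl1, which in mice restrains translation of Irf7, was 1.71 ± 0.12 higher on day 1 and had a lower mean on each later day. On day 14 it stood at 0.24 ± 0.12, which was not called (adjusted p = 0.11) but was called without the right array of day 14 (0.41). Oas3 was also highest on day 1, with 1.67 ± 0.10 on day 1 and 0.41 ± 0.10 on day 7, and Oas2 stood at 1.59 ± 0.13 on day 3. Oas1a differed by 0.80 ± 0.10 on day 3, and a further row shared by Oas1a and Oas1g was not used for it.

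The antiviral effectors divided by the time at which they were highest. Mx1, a GTPase that traps viral nucleocapsids, had the widest range of all members. Mx1 read 6.53 and 6.06 on day 0, 7.92 and 7.88 on day 1, 8.86 and 8.66 on day 3, 8.50 and 8.54 on day 5, 7.76 and 7.88 on day 7, 7.61 and 7.71 on day 10 and 7.51 and 7.24 on day 14. It was 2.47 ± 0.14 above day 0 on day 3 (5.53-fold, adjusted p = 2.2e-08), and its difference of 1.09 ± 0.14 on day 14 was still called (adjusted p = 3.4e-05). C57BL/6 mice are known to carry a deletion in Mx1 that leaves no working protein, and the array reads RNA only. Rtp4 read 8.65 and 8.62 on day 0, 10.69 and 10.77 on day 1, 10.51 and 10.51 on day 3, 10.14 and 10.09 on day 5, 9.68 and 9.91 on day 7, 9.85 and 9.81 on day 10 and 9.62 and 9.32 on day 14. Rtp4, a chaperone of G protein-coupled receptors and an interferon-induced regulator, rose by 2.09 ± 0.10 on day 1 (adjusted p = 1.1e-08) and by 0.83 ± 0.10 on day 14.

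Rsad2 (viperin) and its neighbour Cmpk2, which together supply and convert a nucleotide that stops viral RNA chains, rose on days 1, 3 and 5 and were not called higher later. Rsad2 read 9.74 and 9.26 on day 0, 11.10 and 10.75 on day 1, 10.38 and 10.37 on day 3, 10.21 and 10.15 on day 5, 9.47 and 9.66 on day 7, 9.38 and 9.38 on day 10 and 9.17 and 8.91 on day 14. It was 1.43 ± 0.15 higher on day 1 (adjusted p = 7.8e-06), not called on days 7 and 10 (0.06 ± 0.15 and -0.12 ± 0.15), and called lower on day 14 at -0.46 ± 0.15 (adjusted p = 0.0229). Both day 14 arrays lay below both day 0 arrays, but the call ended without the left array of day 0 (-0.22) or the right array of day 14 (-0.33). Cmpk2 differed by 0.80 ± 0.11, 0.49 ± 0.11 and 0.32 ± 0.11 on days 1, 3 and 5, and by 0.01 ± 0.11 on day 7 (adjusted p = 0.94). Its day 5 call ended without the left (0.31) or right (0.34) array of day 0 and without the right array of day 5 (0.29). Bst2 (tetherin), which holds budding virus to the cell, took the opposite order: 0.19 ± 0.11 on day 1, not called (adjusted p = 0.176), 0.89 ± 0.11 on day 3 and 1.15 ± 0.11 on day 5. Samhd1, which breaks down deoxynucleotides, was 1.05 ± 0.07 higher on day 1 and 1.01 ± 0.07 on day 5, and the apoptosis-linked Xaf1 0.46 ± 0.11 and 0.83 ± 0.11.

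Enzymes that attach the ubiquitin-like protein ISG15 or take it off rose with the rest. Usp18 read 8.77 and 8.83 on day 0, 10.36 and 10.02 on day 1, 10.45 and 10.09 on day 3, 10.09 and 9.96 on day 5, 9.36 and 9.78 on day 7, 9.59 and 9.36 on day 10 and 9.51 and 9.04 on day 14. Usp18, which removes ISG15 and blocks the type I receptor, was 1.47 ± 0.18 higher on day 3 (adjusted p = 2.1e-05). Its day 14 difference of 0.48 ± 0.18 (adjusted p = 0.0438) lost its call without the left or the right array of day 0 (0.44 and 0.51) and without the left array of day 14 (0.25). Trim25 read 9.14 and 9.07 on day 0, 10.35 and 10.50 on day 1, 10.39 and 10.40 on day 3, 10.38 and 10.39 on day 5, 10.08 and 10.17 on day 7, 10.15 and 10.09 on day 10 and 9.79 and 9.82 on day 14. Trim25, a ubiquitin ligase known as an activator of RIG-I, held 1.32 ± 0.07, 1.29 ± 0.07 and 1.27 ± 0.07 on days 1, 3 and 5 with close arrays, and 0.70 ± 0.07 on day 14. Herc6, the mouse ligase for ISG15, was 0.96 ± 0.09 higher on day 1 and 0.46 ± 0.09 on day 14. Isg15 itself had no row of its own.

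Parp9 and Parp14, ADP-ribosyltransferase family proteins, were called higher on every day after day 0. Parp9 read 8.92 and 8.89 on day 0, 9.45 and 9.41 on day 1, 9.71 and 9.63 on day 3, 9.73 and 9.67 on day 5, 9.59 and 9.54 on day 7, 9.61 and 9.47 on day 10 and 9.61 and 9.50 on day 14. Parp9 was 0.80 ± 0.08 above day 0 on day 5 and 0.65 ± 0.08 on day 14 (adjusted p = 1.7e-06 and 1.8e-05), with no overlap on any day. Parp14 read 8.69 and 8.84 on day 0, 9.78 and 9.71 on day 1, 9.85 and 10.01 on day 3, 9.97 and 9.88 on day 5, 9.46 and 9.55 on day 7, 9.50 and 9.45 on day 10 and 9.37 and 9.32 on day 14. Parp14 was 1.16 ± 0.08 higher on day 5 (adjusted p = 1.4e-07). Ifi35 moved least of these, at 0.34 ± 0.11 on day 1 and 0.54 ± 0.11 on day 5; its day 1 call ended without the left array of day 1 (0.21) and without the left (0.32) or right (0.36) array of day 0.

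**Figure D2:**
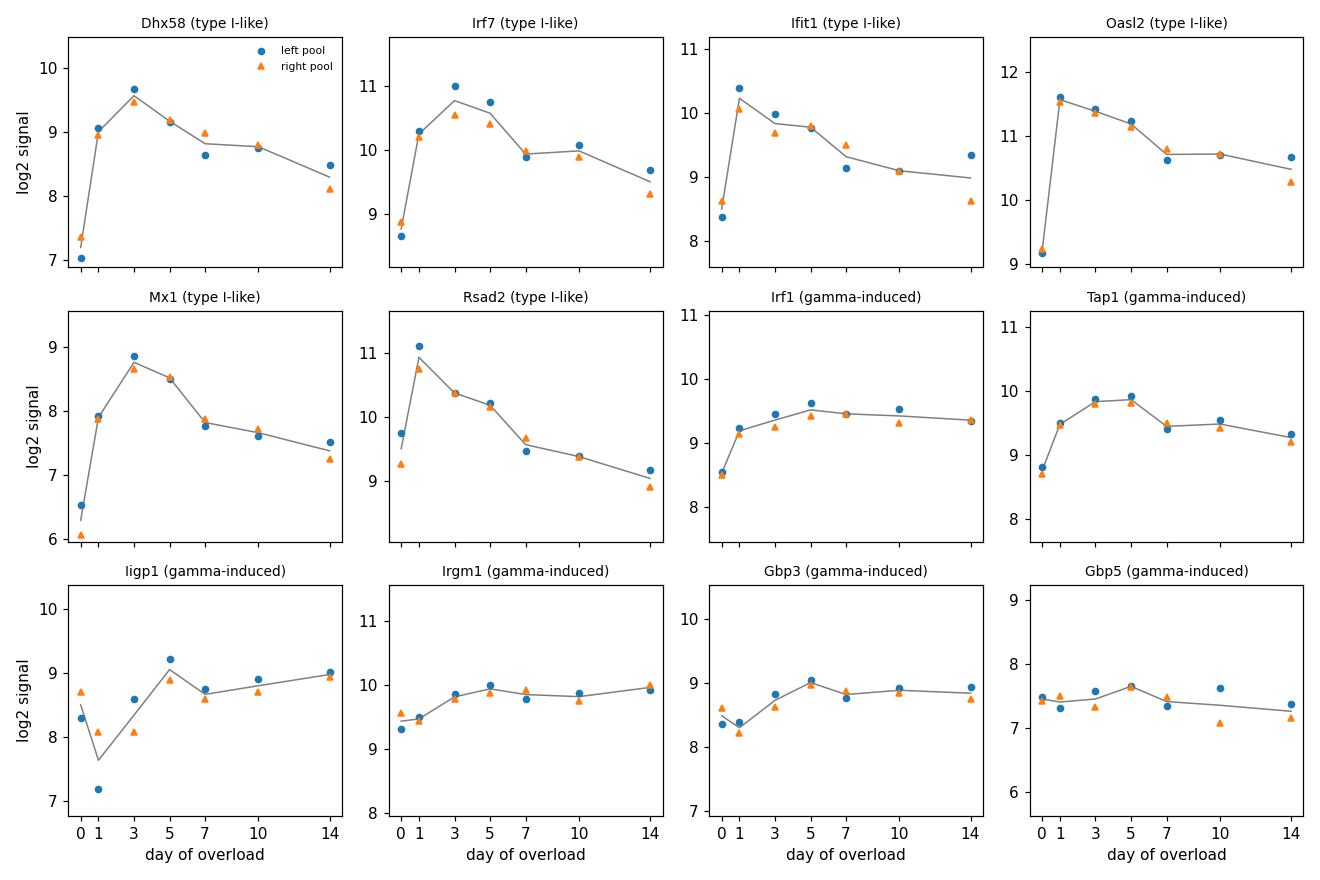
Log2 signal of 12 members by day of overload; circles are left pools, triangles right pools, and the line joins the day means. All panels span the same number of log2 units. Dhx58, Irf7, Oasl2 and Mx1 have every later array above day 0, Rsad2 ends below it, and Iigp1 dips on day 1.

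Of the gamma-induced GTPases with a row of their own (Irgm1, Iigp1, Gbp3, Gbp5 and Gbp7) none was called higher on day 1 by limma, nor had one a higher value at an unadjusted p under 0.05. Rows shared with another gene went otherwise: that of Ifi47 and Olfr56 was 1.02 ± 0.11 above day 0 on day 1 and that of Gbp2 and Gbp2b 0.74 ± 0.10 (adjusted p = 6.8e-05 and 2.1e-04), while that of Irgm2 and Igtp was at -0.02 ± 0.11 (adjusted p = 0.935). Iigp1 (IRGA6), an immunity-related GTPase that loads onto vacuoles of parasites, was the 1 member that fell then. Iigp1 read 8.30 and 8.70 on day 0, 7.19 and 8.08 on day 1, 8.60 and 8.08 on day 3, 9.21 and 8.89 on day 5, 8.75 and 8.59 on day 7, 8.90 and 8.70 on day 10 and 9.01 and 8.94 on day 14. The day 1 difference was -0.86 ± 0.25 (adjusted p = 0.0129), with both day 1 arrays below both day 0 arrays but far from each other, and it was not called without the left array of day 1 (-0.42, adjusted p = 0.153) or the right array of day 0 (-0.66). On day 5 it was 0.55 ± 0.25 and on day 14 0.47 ± 0.25, neither called (adjusted p = 0.0745 and 0.126), although both arrays of each day lay above day 0. Irgm1 read 9.32 and 9.56 on day 0, 9.50 and 9.45 on day 1, 9.86 and 9.78 on day 3, 10.00 and 9.89 on day 5, 9.78 and 9.93 on day 7, 9.88 and 9.76 on day 10 and 9.92 and 10.01 on day 14. Irgm1, a regulatory GTPase of the same family that guards the cell's own membranes, was unlike most members highest on day 14: it differed by 0.04 ± 0.10 on day 1, not called (adjusted p = 0.793), by 0.50 ± 0.10 on day 5 (adjusted p = 5.9e-04) and by 0.53 ± 0.10 on day 14 (adjusted p = 5.9e-04).

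Guanylate-binding proteins, which coat microbial vacuoles and assist inflammasomes, differed in the number of days called. Gbp3 read 8.36 and 8.61 on day 0, 8.38 and 8.21 on day 1, 8.83 and 8.62 on day 3, 9.05 and 8.96 on day 5, 8.76 and 8.88 on day 7, 8.93 and 8.84 on day 10 and 8.93 and 8.74 on day 14. Gbp3 differed by -0.19 ± 0.11 on day 1 and 0.24 ± 0.11 on day 3, neither called (adjusted p = 0.195 and 0.0877), and by 0.52 ± 0.11 on day 5 (adjusted p = 0.00141). Gbp5 read 7.49 and 7.41 on day 0, 7.31 and 7.49 on day 1, 7.58 and 7.32 on day 3, 7.65 and 7.64 on day 5, 7.34 and 7.48 on day 7, 7.62 and 7.08 on day 10 and 7.37 and 7.15 on day 14. The arrays of Gbp5 overlapped day 0 on days 1, 3, 7 and 10 and no day was called. Its largest difference was 0.20 ± 0.15 on day 5 (adjusted p = 0.276). Gbp7 was not called on days 1, 3, 7 and 10 and was called higher on days 5 and 14. Its mean was 9.73 on day 14, against 9.47 on day 0. On day 5 it stood at 0.37 ± 0.10. That day 5 call ended without the left array of day 0 (0.28) or of day 5 (0.32), and after quantile normalization (0.22). Quantile normalization also ended the calls of Gbp3 on days 7, 10 and 14 (0.14, 0.22 and 0.20).

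Tap1, a subunit of the pump that loads peptides on MHC class I, was called higher on every day and was highest on day 5. Tap1 read 8.82 and 8.70 on day 0, 9.50 and 9.46 on day 1, 9.87 and 9.79 on day 3, 9.92 and 9.81 on day 5, 9.40 and 9.50 on day 7, 9.55 and 9.42 on day 10 and 9.33 and 9.21 on day 14. Its difference was 0.72 ± 0.08 on day 1, 1.11 ± 0.08 on day 5 (2.15-fold, adjusted p = 2.1e-07) and 0.51 ± 0.08 on day 14 (adjusted p = 2.5e-04), with every array above day 0.

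Set side by side over members with a row of their own, the class medians were farthest apart on day 1. Type I-like members called higher were 27 of 28 on day 1, 28 on days 3 and 5, 26 on days 7 and 10 and 21 on day 14; gamma-induced members were 3, 4, 6, 5, 5 and 6 of 8. On the log2 scale the type I-like medians were 1.25, 1.28, 1.15, 0.75, 0.67 and 0.53, and the gamma-induced medians 0.02, 0.31, 0.54, 0.37, 0.39 and 0.49. The class medians were thus apart by more than 1 on day 1 and close to each other on day 14. The further genes of the same kinds, given below, did not draw together in this way. Their type I and gamma-induced medians were 0.63 and 0.22 on day 1, and 0.49 and 0.10 on day 14. With the rows of several symbols added for members that lack one of their own, the gamma-induced values on day 1 were 5 called higher of 11 and a median of 0.04, and the type I-like values 28 of 29 and 1.19. On day 1 both arrays lay above both day 0 arrays for 28 of 28 type I-like and 3 of 8 gamma-induced members, and on day 14 for 22 of 28 and 7 of 8. The share of all genes with such separation was not counted, so these counts only describe the arrays. Across every day from 1 to 14, 20 type I-like members were called higher. The share of all genes called on all 6 days was not counted, so this count only describes the members. Each array of day 0 or of the compared day was left out in turn, but not those of other days. In these fits 15 of the 20 kept all 6 calls (Ddx58, Dhx58, Herc6, Ifih1, Irf7, Irf9, Mx1, Oasl2, Parp9, Parp14, Rtp4, Samhd1, Stat2, Trim25 and Zbp1). Of the gamma-induced members Irf1, Irf8 and Tap1 were called higher on all 6 days and kept these calls. No test of the difference between the classes was made, since membership was set by knowledge of the genes and the GTPases weigh heavily among so few.

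**Figure D3:**
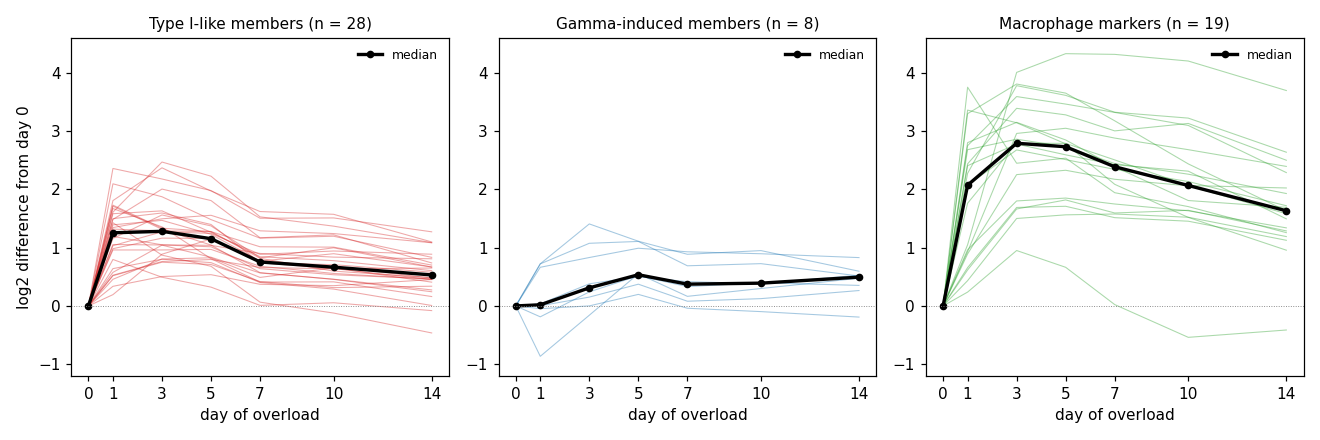
Log2 difference from day 0 (day means, thin lines for genes, thick line for the median) by day of overload for the 28 type I-like members, the 8 gamma-induced members and 19 macrophage markers. The type I-like median is highest on days 1 to 5, the gamma-induced median on day 5, and the macrophage median on day 3.

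**Figure D4:**
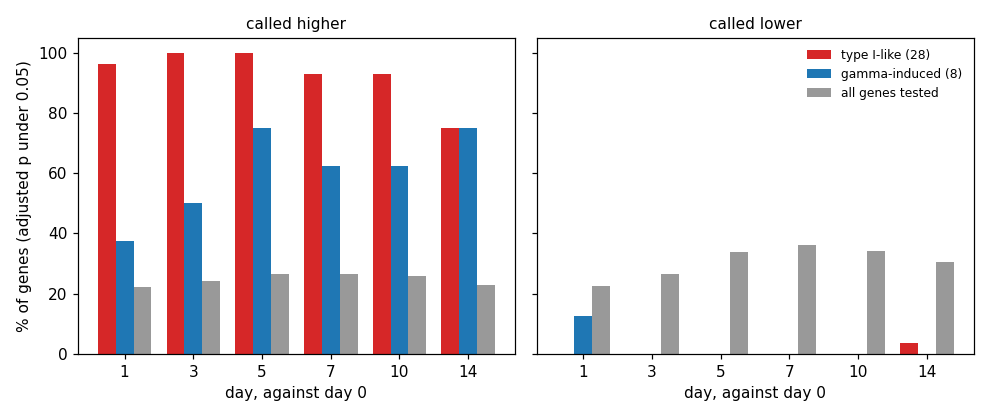
Percentage of type I-like members (red), gamma-induced members (blue) and all genes tested (grey) called higher (left) and lower (right) than day 0 on each day (adjusted p under 0.05). The red bars stand at 75% or more on every day, while the grey bars lie between 22.3% and 26.6% on the left.

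By day of the highest mean, 10 type I-like members peaked on day 1, 12 on day 3 and 6 on day 5. The first were Cmpk2, Ifit1, Irf9, Oas3, Oasl1, Oasl2, Rsad2, Rtp4, Samhd1 and Trim25, and the last Bst2, Ddx58, Herc6, Ifi35, Parp9 and Xaf1. Of the gamma-induced members Irf8 peaked on day 3, Irgm1 on day 14 and the other 6 on day 5. Some of these peak days rest on differences smaller than the standard error. The means of Herc6 were 9.389, 9.389 and 9.398 on days 1, 3 and 5, and those of Samhd1 11.933 and 11.925 on days 1 and 3. Irgm1 had means of 9.945 on day 5 and 9.968 on day 14. The peak days are thus no tested grouping of the members. Where neighbouring days were tested, day 3 against day 1 called 14 members higher and 4 lower, against 19.5% and 24.7% of all genes. The 9 type I-like rises were of Mx1, Ifit2, Irf7, Stat2, Ifih1, Dhx58, Bst2, Xaf1 and Parp9, from 0.23 ± 0.08 for Ifih1 to 0.86 ± 0.14 for Mx1 (adjusted p = 3.7e-04). The 4 that fell were Oas3 (-0.32 ± 0.10), Oasl1 (-0.40 ± 0.12), Rsad2 (-0.56 ± 0.15) and Cmpk2 (-0.30 ± 0.11), with adjusted p of 0.0292, 0.0204, 0.0118 and 0.0352. The gamma-induced Irf8, Irgm1, Iigp1, Gbp3 and Tap1 rose in this step, Iigp1 by 0.70 ± 0.25 (adjusted p = 0.0379).

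Many of these step calls depended on a single array. The 14 rises became 4 without the left array of day 3, 5 without the right array of day 1, 9 without its left array, and 8 after quantile normalization or with equal array medians. Mx1, Bst2, Irf8 and Tap1 kept the call in each of these fits. The 4 falls became 0 without the left array of day 1 or the right array of day 3, and 2 without the left array of day 3. The rise of Iigp1 was 0.26 without the left array of day 1 and 0.45 without the left array of day 3, and neither was called.

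The type I-like class was lower on day 7 than on day 5. For all 28 of its members both day 7 arrays lay below both day 5 arrays. The share of all genes with such separation was not counted, and the members share the same 4 arrays. Limma called 5 members lower (Mx1, Oas2, Parp14, Samhd1 and Tap1, the last gamma-induced) and 0 higher, against 0.627% and 0.401% of all genes called. Mx1 moved by -0.70 ± 0.14 (adjusted p = 0.0344) and Parp14 by -0.42 ± 0.08 (adjusted p = 0.0363). With any 1 of these 4 arrays left out the count of calls was 0, while the differences of Mx1 stayed between -0.75 and -0.64. Between days 3 and 5, limma called 2 members lower (Oas3 and Rtp4) and 0 higher, against 1.9% and 4.68% of all genes, and Bst2, Iigp1, Gbp3 and Gbp7 were higher at an unadjusted p under 0.05. Between days 7 and 10, limma called 0 members in either direction, against 0.933% higher and 1% lower of all genes, and 0 of the members had an unadjusted p under 0.05. From day 10 to day 14, limma called 3 lower (Rtp4, Trim25 and Irf8) and 0 higher, against 5.11% and 3.79% of all genes. In the steps to day 7 and to day 14 the count higher at an unadjusted p under 0.05 was also 0. The 2 falls of day 5 became 0 without the left array of day 3 or the right array of day 5, and 1 without the right array of day 3 or the left array of day 5. The 3 falls of day 14 became 0 without either array of day 10 or without the right array of day 14.

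Over the longer span, 25 of 28 type I-like members were lower on day 14 than on day 3, with a median of -0.78, and 2 of 8 gamma-induced members (Irf8 and Tap1), with a median of 0.06. By limma 0 members were higher (Iigp1 alone had an unadjusted p under 0.05, and 1 member was called with array weights or without the left array of day 3), and 17.8% and 17.4% of all genes were called lower and higher. The 27 falls stayed between 23 and 27 with 1 array of day 3 or day 14 left out. Bst2, Ifi35 and Parp9 were the type I-like members without a call, at -0.22 ± 0.11, -0.05 ± 0.11 and -0.11 ± 0.08. The largest falls were of Mx1 (-1.38 ± 0.14), Rsad2 (-1.33 ± 0.15) and Dhx58 (-1.27 ± 0.15), with adjusted p of 1.0e-05, 3.2e-05 and 3.5e-05.

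Few genes that encode interferons were called higher. Of 15 measured interferon genes 1 was called higher on day 1 (Ifna13, at 0.58 ± 0.18, named after its value was seen). On days 3, 10 and 14 it was also 1 (Ifnz, interferon zeta, at 0.34 ± 0.08, 0.32 ± 0.08 and 0.31 ± 0.08, likewise). Of all genes 22.3%, 24.1%, 25.9% and 22.9% were called higher on days 1, 3, 10 and 14. On days 5 and 7 limma called 0 of the 15 higher, against 26.4% and 26.6% of all genes. The largest count called lower was 8, on day 7. Of all genes 36.3% were called lower then, also the largest share of any day after day 0. The call of Ifna13 ended without the left array of day 1 (0.30) or of day 0 (0.36). Ifnb1, the type I interferon that many cell types make, read 6.26 and 6.41 on day 0, 6.30 and 6.37 on day 1, 6.08 and 6.11 on day 3, 6.01 and 5.96 on day 5, 6.00 and 5.98 on day 7, 5.93 and 6.09 on day 10 and 5.90 and 5.91 on day 14. It differed by 0.00 ± 0.08 on day 1 (adjusted p = 0.97), by -0.35 ± 0.08 on day 5 (adjusted p = 0.00206) and by -0.43 ± 0.08 on day 14 (adjusted p = 6.7e-04). Ifng, made by T and NK cells, read 7.66 and 7.66 on day 0, 7.54 and 7.56 on day 1, 7.38 and 7.44 on day 3, 7.18 and 7.34 on day 5, 7.16 and 7.23 on day 7, 7.20 and 7.31 on day 10 and 7.43 and 7.57 on day 14. It differed by -0.12 ± 0.08 on day 1 (adjusted p = 0.271), by -0.47 ± 0.08 on day 7 (adjusted p = 2.9e-04) and by -0.16 ± 0.08 on day 14 (adjusted p = 0.107). No detection call stands behind these values, so whether either RNA was above background is not known, and no filter on low values was applied. The medians of the 15 genes were 0.10, -0.05, -0.25, -0.34, -0.33 and -0.28 on days 1, 3, 5, 7, 10 and 14, below those of all genes from day 5 on. After quantile normalization 0 were called higher on any day by limma, and 2, 4, 5, 5 and 3 were called lower on days 3, 5, 7, 10 and 14. The share of all genes called under that scaling was not counted, so these counts only describe the 15 genes.

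Both chains of the type I receptor rose and stayed up. Ifnar1 read 9.16 and 9.07 on day 0, 10.27 and 10.36 on day 1, 10.61 and 10.81 on day 3, 10.63 and 10.80 on day 5, 10.70 and 10.72 on day 7, 10.53 and 10.64 on day 10 and 10.35 and 10.33 on day 14. Ifnar2 read 9.83 and 9.41 on day 0, 10.62 and 10.75 on day 1, 11.39 and 11.38 on day 3, 11.46 and 11.51 on day 5, 11.37 and 11.34 on day 7, 11.14 and 11.33 on day 10 and 10.93 and 11.11 on day 14. Every later array of both was above day 0, by 1.59 ± 0.09 and 1.76 ± 0.12 on day 3 and by 1.22 ± 0.09 and 1.40 ± 0.12 on day 14 (adjusted p at most 1.3e-05). For the gamma receptor, the ligand-binding chain Ifngr1 was 0.45 ± 0.09 higher on day 1 and 0.91 ± 0.09 on day 5, while the second chain Ifngr2 was -0.30 ± 0.07 on day 1 (adjusted p = 0.0029) and was not called on any later day. Of the 15 measured receptor, kinase and STAT genes and their inhibitors, limma called 10 higher and 2 lower on day 1, against 22.3% and 22.6% of all genes. On day 14 it called 8 higher and 2 lower, against 22.9% and 30.5% of all genes. The largest changes were of Socs3, an inhibitor of JAK kinases (2.95 ± 0.15 on day 1), Ptpn2, a phosphatase that acts on them (1.89 ± 0.10), and Ifnar2 itself.

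**Figure D5:**
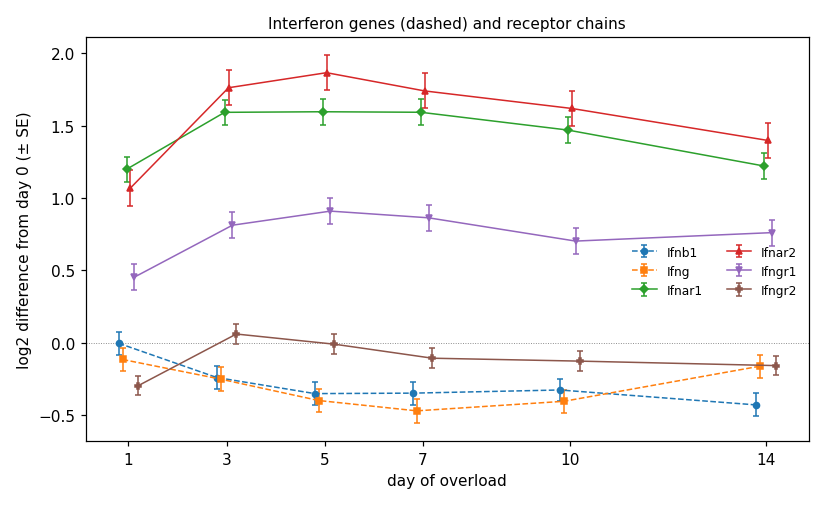
Log2 difference from day 0 with its standard error (2 arrays a day) by day of overload, for Ifnb1 and Ifng (dashed) and the receptor chains Ifnar1, Ifnar2, Ifngr1 and Ifngr2 (solid). Ifnar1 and Ifnar2 stand above 1 on every day, while Ifnb1 and Ifng lie at or below 0.

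Upstream sensors and adaptors rose as well: of 14 measured, limma called 11 higher but 2 lower on day 1, against 22.3% and 22.6% of all genes. On day 3 it called 12 higher and 1 lower, against 24.1% and 26.6% of all genes. The endosomal RNA sensors Tlr7 and Tlr8 stood 3.0 ± 0.16 and 2.57 ± 0.14 above day 0 on day 3, and their adaptor Myd88 2.06 ± 0.09 on day 1. Mavs, the mitochondrial adaptor of RIG-I and MDA5, fell on day 1 (-0.99 ± 0.08, adjusted p = 6.9e-07), and it was named after its value was seen.

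Further genes of the same kinds were counted in the same way. On days 1, 3, 5, 7, 10 and 14 the shares of all genes called higher were 22.3%, 24.1%, 26.4%, 26.6%, 25.9% and 22.9%. The shares of all genes called lower were 22.6%, 26.6%, 33.7%, 36.3%, 34.3% and 30.5%. Of 33 further type I genes 28, 31, 31, 27, 26 and 24 were called higher on days 1, 3, 5, 7, 10 and 14, with medians of 0.63, 0.91, 0.88, 0.73, 0.71 and 0.49, led by Ifitm1, a membrane protein that blocks virus entry (3.29 ± 0.14 on day 1), Phf11a (2.34 ± 0.18 on day 3) and the ubiquitin ligase Trim30a (2.17 ± 0.08 on day 1). Of 27 further gamma-induced genes 12, 17, 17, 13, 13 and 11 were higher and 3, 3, 2, 6, 5 and 5 lower on these days, with medians of 0.22, 0.35, 0.38, 0.25, 0.25 and 0.10. Their leaders were the antibody receptor Fcgr1 (3.41 ± 0.11 on day 3) and the T cell attractants Cxcl10 (2.24 ± 0.18 on day 1) and Cxcl9 (2.01 ± 0.12 on day 14). The 3 that fell on day 1 were Gbp4 (-0.76 ± 0.22), Gbp9 (-0.65 ± 0.13) and the complement inhibitor Serping1 (-0.82 ± 0.08), named after their values were seen. The call of Gbp4 ended without the right array of day 0 (-0.72) or the left array of day 1 (-0.41).

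Markers of other cells moved on the same days. Of 19 macrophage markers 18 were called higher on day 1, 19 on days 3 and 5 and 18 on days 7, 10 and 14. Among all genes the share called higher was between 22.3% and 26.6% on these days. The macrophage medians were 2.07, 2.79, 2.73, 2.39, 2.07 and 1.63. Like the type I-like median, the macrophage median was highest on day 3 and lowest on day 14. The order differed on day 1: the macrophage median was then below those of days 5 and 7. The type I-like median on day 1 (1.25) was above those of days 5 and 7 (1.15 and 0.75). Of the macrophage markers Ms4a7 (4.33 ± 0.14 on day 5) and the scavenger receptor Msr1 (3.81 ± 0.13 on day 3) changed most. Between day 14 and day 3, 17 of these markers fell, against 17.8% of all genes. By array, the macrophage median was 0.23 and -0.23 on day 0, 2.10 and 2.04 on day 1, 2.85 and 2.73 on day 3, 2.75 and 2.68 on day 5, 2.34 and 2.43 on day 7, 2.09 and 2.09 on day 10 and 1.55 and 1.71 on day 14. Neutrophil markers (12) had medians of 2.49 on day 1 and -1.0 on day 14, led by Trem1 (4.24 ± 0.12 on day 1) and Il1r2 (4.09 ± 0.16). Of 14 T and NK cell markers 2 were higher and 1 lower on day 1 (14.3% and 7.14%), against 22.3% and 22.6% of all genes. On day 14, 9 were higher (64.3%) and 0 lower, against 22.9% and 30.5% of all genes. Their medians were 0.17 on day 1 and 0.65 on day 14, led by Cd3g (2.14 ± 0.17 on day 14) and Nkg7 (1.69 ± 0.24).

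Markers of muscle fibres (16) had medians of -0.33 on day 1, -0.83 on day 5 and -0.21 on day 14, with Tnni2 (-1.41 ± 0.16 on day 5) and Pvalb (-1.33 ± 0.12) farthest down. Of 8 fibroblast markers 2 rose but 4 fell on day 1, while all 8 were higher on day 14, led by Col1a1 (3.29 ± 0.08 on day 10) and Col3a1 (3.25 ± 0.08 on day 14). Of 5 B cell markers 0 were higher on any day by limma and 3 were lower on day 14, with Ms4a1 (-0.91 ± 0.19 on day 7) and Cd79a (-0.79 ± 0.19) farthest down; without the left array of day 0 these were -0.56 and -0.38. Among 11 dendritic cell markers 2 rose but 2 fell on day 1 (18.2% each), while 4 were higher but 1 lower on day 14 (36.4% and 9.09%). Of all genes 22.3% rose and 22.6% fell on day 1, and 22.9% were higher and 30.5% lower on day 14. The day 1 shares of the dendritic cell markers thus lay under those of all genes. Itgax (2.05 ± 0.12 on day 10) and Flt3 (0.78 ± 0.10 on day 5) were the highest of them. Siglech, a defining marker of plasmacytoid dendritic cells, the main makers of interferon alpha in virus infection, fell on day 1 (-0.24 ± 0.09, adjusted p = 0.0392), a call that ended without the left array of day 0 (-0.18) or either array of day 1 (-0.24 and -0.23). Of 10 endothelial markers 6 fell on day 1, against 22.6% of all genes. On day 5, 7 were higher and 2 lower, against 26.4% and 33.7% of all genes. All 10 were higher on day 3 than on day 1, against 19.5% of all genes. Kdr (-1.24 ± 0.07 on day 1) and Tek (-1.16 ± 0.10) changed most. The part of any of these cells in the members' values was not tested.

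No member was called between the right and left pools. With the day as a block, limma called 0 of the 36 members between sides, and 0% of all genes. Irf1 alone had an unadjusted p under 0.05, with a mean of 9.20 on right and 9.31 on left arrays (adjusted p = 0.450) and right above left on 1 of 7 days. By array, the median difference of the members from day 0 was 0.97 on the right and 1.04 on the left array of day 1. On day 14 it was 0.45 on the right and 0.59 on the left array.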

How the data were processed

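RNA of 14 muscle pools was hybridised to 1-colour Affymetrix arrays. The authors deposited 1 log2 signal for each probe set and array, on a common scale across arrays. The normalization was not given in the sources used here. Partek appears in the submitters' processing notes without a version, and the RNA input is 100 ng in the design but 250 ng in the label protocol. Values ran from 2.35 to 14.8. Scanner files were not used, so whether a probe set was above background is not known, and precision is limited by the number of arrays.

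The platform annotation paired 21789 of 35557 probe sets with 1 symbol, 1621 with several and 12147 with none. Of a gene's probe sets with 1 symbol, that with the highest mean over the 14 arrays was used, which gave 19938 genes. Models with the day as group were fitted with limma 3.58.1 in R 4.3.3 (7 residual and 4.95 prior degrees of freedom, and a median standard error of 0.0974 for a difference between days). P-values are two-sided and adjusted over all genes of a contrast. The side comparison kept the day as a block. The procedure was tested on simulated data.

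The members and lists were chosen with earlier results of these data known. Values on all arrays are given for the 2 members of each role with the widest range of day means, and for Irf7, Stat2, Irf1 and, as key cases, Rsad2, which was added after its values were seen. Of the pathway lists Ifnb1, Ifng and the receptor chains were named, and of the others those with the largest called changes. Alternatives were quantile normalization, equal array medians, a filter on low signals, averaged probe sets, other variance models, array weights, the side as a block, 4 arrays only, a stricter threshold and each array left out. For steps between days, for genes outside the members and for rows of several symbols they were added after the data were seen.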

Additional observations from a re-analysis of the deposited data

Results flagged for a closer look

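Rows with several symbols were left out of the gene table, and 4 of them that carry a member's symbol were called above day 0 on at least 1 day in a limma fit over all probe sets; the rows of Ifi47 and of Gbp2 were called higher on every day. The row of Ifi47 and the olfactory receptor gene Olfr56 read 8.15 and 8.12 on day 3, against 7.02 and 6.88 on day 0, a difference of 1.18 ± 0.11 (adjusted p = 1.7e-05). The row of Isg15 and Gm9706 read 7.75 and 7.37 on day 1, against 7.07 and 7.13 on day 0, a difference of 0.46 ± 0.13 (adjusted p = 0.0221). It was not called on any later day, with differences of 0.31, 0.05, 0.01, 0.03 and -0.10 on days 3, 5, 7, 10 and 14 (adjusted p = 0.0945 on day 3), unlike most type I-like members. The row of Gbp2 and Gbp2b read 9.95 and 9.78 on day 5, against 8.98 and 8.94 on day 0, a difference of 0.91 ± 0.10 (adjusted p = 3.2e-05). The row of Oas1a and Oas1g read 9.69 and 9.60 on day 3, against 7.41 and 7.23 on day 0, a difference of 2.32 ± 0.11 (adjusted p = 2.7e-07), where the row of Oas1a alone differed by 0.80. Which of the genes on such a row gave the signal was not tested. The row of Irgm2 and Igtp was not called on any day and differed most on day 5, by 0.29 (adjusted p = 0.0578).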

How the results depend on the processing

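No called direction reversed under any alternative tried. With rows of several symbols added, gamma-induced medians were 0.04 on day 1 and 0.55 on day 5. The calls lower of day 1 and of day 14 were 0 at an adjusted p under 0.01 and with only the 4 arrays compared. Equal array medians moved the median of all genes to between -0.29 and -0.17 on days 3 to 14. After quantile normalization it was -0.0083 on day 1 and between -0.074 and -0.054 on days 3 to 14. The medians below should be read from the all-gene median of their own scaling. Type I-like medians were 1.16, 1.15, 1.01, 0.59 and 0.52 on days 1, 3, 5, 7 and 10 after quantile normalization, and 1.02, 0.61 and 0.53 on days 5, 7 and 10 with equal medians. Gamma-induced medians were 0.18, 0.37, 0.20, 0.23 and 0.35 on days 3, 5, 7, 10 and 14 after quantile normalization, and 0.23, 0.25 and 0.38 on days 7, 10 and 14 with equal medians. Members called higher on day 14 were 21 after quantile normalization and 24 with equal medians, and on day 10 they were 24 and 25.

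With each array left out, members called higher ranged over 28 to 30 on day 1, 31 to 33 on day 3, 32 to 35 on day 5, 27 to 31 on day 7, 25 to 31 on day 10 and 21 to 29 on day 14. Those called lower ranged over 0 to 1 on days 1, 10 and 14. Type I-like medians ranged over 1.20 to 1.32, 1.20 to 1.33, 1.09 to 1.23, 0.67 to 0.82, 0.58 to 0.74 and 0.45 to 0.66, and gamma-induced medians over -0.048 to 0.13, 0.19 to 0.43, 0.39 to 0.70, 0.25 to 0.50, 0.27 to 0.51 and 0.34 to 0.50. For the difference of a single member, only arrays of day 0 or of the compared day were left out. Of 864 such fits, 49 lost a call and 6 gained one, in 14 genes for the losses.

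The steps between days depended most on single arrays. For each step only arrays of its 2 days were left out. On day 3 against day 1 the calls higher were 8 after quantile normalization, 8 with equal medians, 6 at 0.01 and 4 to 14 with an array left out, and the calls lower 0 at 0.01 and 0 to 3. On day 5 against day 3 the calls lower were 1 at 0.01 and 0 to 1. On day 7 against day 5 they were 8 with an intensity trend, 8 with array weights, 0 at 0.01 and 0 with any array of these days left out. On day 14 against day 10 they were 0 at 0.01 and 0 to 2. On day 14 against day 3 they were 23 to 27, and the calls higher were 1 with array weights and 0 to 1. The cause of these changes was not tested.

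With the side as a replicate block, all 216 differences of members from day 0 kept their call and the count on day 3 was again 32. Against day 3, the members called lower on day 14 were 26 with the block. Side deviations correlated between days at r of -0.19 to 0.35 (median 0.07, 6 of 21 pairs over 0.1). These values show only how far side differences recurred between days. They cannot tell whether both arrays of a day came from the same animals. With 2 arrays a day, a difference far under the spread between pools was not detectable, and one day's animals cannot be separated from the day.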
